A study of Mus musculus with 8 samples.

Results

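Splicing factors and heterogeneous nuclear ribonucleoproteins (hnRNPs) were described as 1 set of 69 genes, taken by name. The set holds every gene of the authors' deposited table whose symbol begins with Snrp, Srsf, Hnrnp, Sf3a, Sf3b, Prpf or U2af, which gave 69 of 25948 genes there. All 69 were found by Ensembl identifier among the 47937 genes of the count tables. By role they were 12 proteins of small nuclear ribonucleoproteins (snRNPs), 9 subunits of SF3A and SF3B, 3 U2AF genes, 13 PRPF genes, 11 SR protein genes and 21 hnRNP genes. Roles follow the names alone. The SR genes thus include Srsf3-ps, an intronless copy, and the hnRNP genes the processed pseudogene Hnrnpa1l2-ps2, which had too few reads for a test. The name pattern does not take genes named Snrnp, such as Snrnp70.

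RNA was sequenced from pro-B cells, an early stage of B-lymphocyte development, immortalised by the Abelson leukaemia virus (A-MuLV transformed). In 4 libraries the cells had received 0.5 µM dTAG-13 for 6 h, and in 4 libraries the solvent DMSO (the series' design text calls them biological replicates). Whether they were separate cultures is not stated, so p-values measure the spread between these libraries. The treatment label of the DMSO libraries reads 6 h, while their titles read 0h. All 8 libraries carry the genotype EBF1-dTAG_N, in which the cells' own EBF1, a transcription factor of the B lineage, was replaced by an exogenous modified gene. dTAG-13 directs proteins that carry the dTAG tag to degradation. No library came from cells without the tag, so an effect of the compound and an effect of EBF1 loss cannot be told apart. The cells are a virally transformed culture, and the labels do not say whether they are 1 clone.

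Introns are removed from pre-mRNA by the spliceosome, which is built from small nuclear RNAs and their proteins. The U1 snRNP reads the 5′ splice site, U2AF the 3′ splice site, and the U2 snRNP, with SF3A and SF3B, the branch point, before the U4/U6.U5 tri-snRNP with several PRPF proteins joins. SR proteins bind exons and mostly favour the use of nearby splice sites, and hnRNPs coat nascent RNA and often oppose that use. Reads over exons come mainly from mature mRNA. Reads over introns come mostly from unspliced RNA and were taken as whole-gene reads minus exonic reads. Retained introns and exons missing from the annotation count as intronic here.

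Exonic reads summed to 28982316 to 38999496 per library and whole-gene reads to 37269253 to 50980817. Values are given as CPM, counts scaled to a common library total after a correction factor for each library (TMM), separately for exonic and for intronic reads. They are relative to the corrected library total. With bulk RNA, fewer cells of a type and less RNA per cell cannot be told apart. The 9 pro-B markers checked all had a mean above 1 CPM, while of 5 T-cell markers 4 had 0 reads, of 5 myeloid markers none passed 1 CPM, and all 3 erythroid markers had 0 reads. The summed pro-B markers were lower after dTAG-13, with 2029 to 2149 CPM in dTAG-13 libraries and 2696 to 2747 CPM in DMSO libraries. Whether this plays a part in the results below was not tested. Ebf1 mRNA averaged 767 CPM with dTAG-13 and 623 CPM with DMSO, and it does not check the treatment, which acts on the protein.

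Start regions of 59 of the 69 genes were found in a table of RefSeq sequences (GRCm38.p6, windows from 250 bases before to 50 bases after a start site), in 80 windows. On both strands they were searched for the E-box letters CACGTG, a core bound by MYC and related factors, and for the letters TCCC and GGGA with any 2 bases between them, the core bound by EBF proteins. The E-box stood in windows of 9 of the 59 genes (15.25%), against 8.093% of all 27025 genes with a window. The EBF letters stood in none of the 80 windows and in 0.9041% of all 32851 windows. The stretches just upstream of a Snrpa start site, with 2 E-boxes, and of Hnrnpd are shown because both mRNAs fell and both stretches hold the E-box within 100 bases. They were chosen after their values were seen. E-box letters are in capitals, and each stretch ends at the base before the start site.
Snrpa, chr7:27196272-27196371, minus strand: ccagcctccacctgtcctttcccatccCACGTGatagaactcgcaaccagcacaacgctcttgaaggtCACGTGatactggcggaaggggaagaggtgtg
Hnrnpd, chr5:99978939-99979038, minus strand: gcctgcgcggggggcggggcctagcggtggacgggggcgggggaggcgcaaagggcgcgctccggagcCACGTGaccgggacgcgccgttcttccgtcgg
The E-box nearest to the start began 32 bases before it in both stretches. Another Snrpa start site, not shown, had an E-box that began 69 bases before it. In Hnrnph2 the letters began 15 bases after the start site. Among genes with a window, E-box letters stood in 3 of 22 whose mRNA fell, Hnrnpd, Hnrnph2 and Snrpa, and in 6 of 34 that were tested and not called. A match of letters is not a binding site, and the data hold no binding measurement.

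Of the 69 genes, 65 had enough exonic reads for a test, and 23 of them fell after dTAG-13 while 0 rose (edgeR quasi-likelihood F test, adjusted p below 0.05). Among all 12889 genes tested 14% fell and 14.3% rose. The median log2 exonic change was -0.10 over the 65 genes and -0.0030 over all genes tested. Of the 65 estimates 61 lay below 0, against 6537 of all 12889. The sign of small changes depends on the scaling. In a length-scaled level given below without TMM factors (TPM), many of these genes had a higher mean with dTAG-13. Among them were Prpf8, Sf3a1, Sf3b1, Sf3b2, Srsf6, Hnrnpa2b1, Hnrnpc and Hnrnpf, whose exonic estimates lay below 0. At an unadjusted p below 0.05 the count was 33, all of them lower (50.8%), against 18.4% of all genes lower and 18.4% higher, and DESeq2 called 24 lower and 0 higher. The changes were small. The estimates ran from -0.34 in Hnrnph2 to 0.05 in Hnrnpk, their median standard error was 0.04, and none of the 23 reached 1.5-fold. Groups did not overlap in 17 of the 65 genes, all of them lower after dTAG-13, against 13.5% of all genes lower and 14.2% higher.

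Well-expressed genes are called more often, so the share was also taken among genes with a mean of at least 20 CPM, a level chosen after the values were seen. There 21.4% of 6525 genes fell and 19.3% rose, and 23 of the 62 splicing factor and hnRNP genes above it fell (37.1%) and 0 rose. Summed over all 69 genes, exonic reads made up 11836 ± 234 CPM with dTAG-13 and 12527 ± 82.7 CPM with DMSO (SD, n = 4 each), a sum 5.52% lower, with no overlap between groups. Without the TMM factors the groups overlapped. As a plain share of exonic reads, the set made up 1.172 to 1.220% in dTAG-13 libraries and 1.218 to 1.266% in DMSO libraries. Of the 23 genes, 14 kept an adjusted p below 0.05 in edgeR whichever of the 8 libraries was left out. The other 9 lost it in at least 1 such fit. Replacing exonic counts by whole-gene counts left 11 of the 23, out of 66 tested, against 1631 of all 14347 genes lower. A test against a 1.2-fold change in place of 0 left none, against 486 of all 12889 genes lower.

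**Figure D1:**
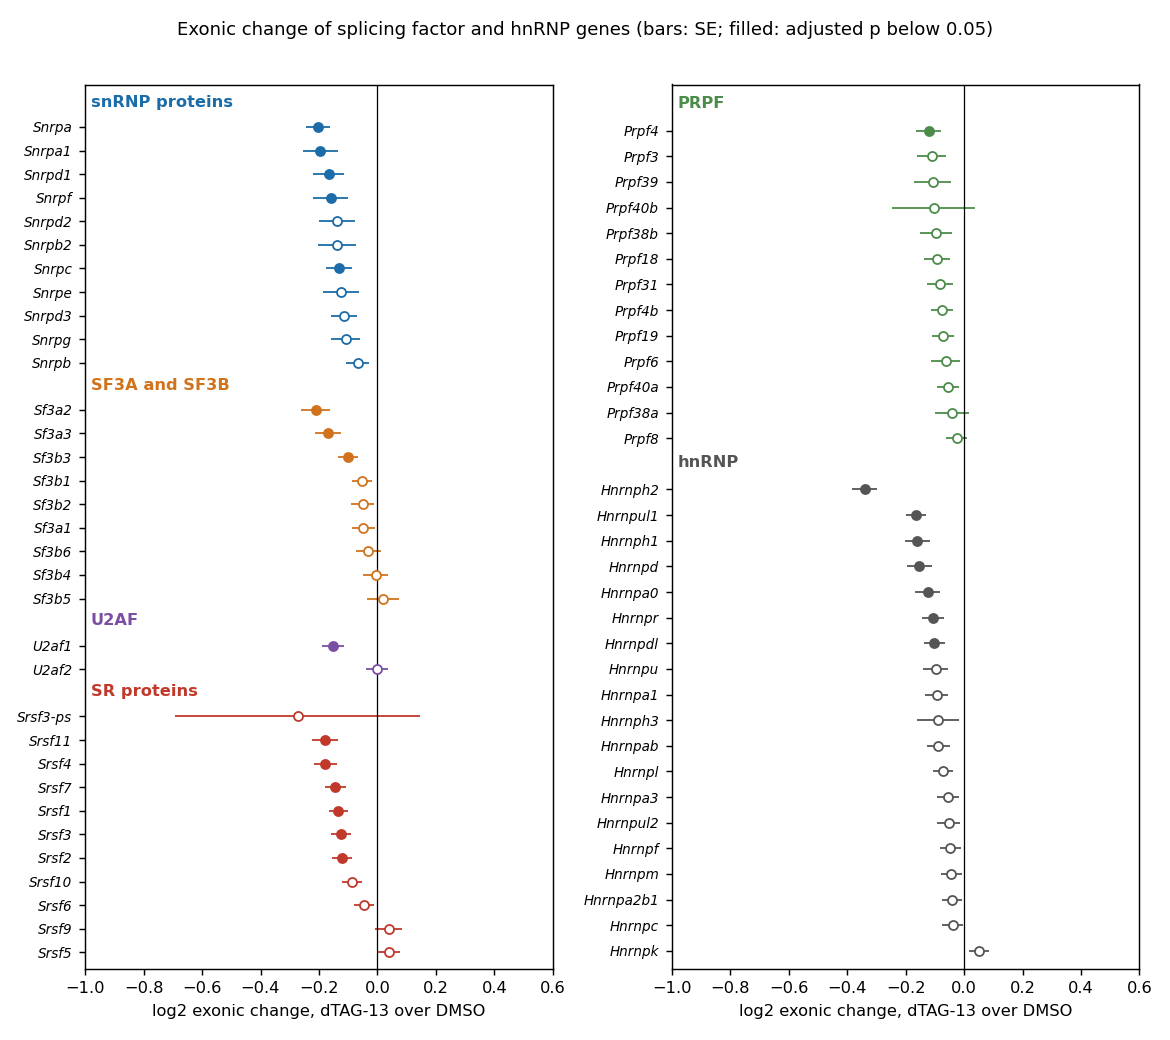
Log2 exonic change (dTAG-13 over DMSO, horizontal axis) of the 65 tested genes by role, with bars for the standard error and filled points for an adjusted p below 0.05. All 23 filled points lie left of 0, from Hnrnph2 at -0.34 to Hnrnpdl and Sf3b3 at -0.10.

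Of the snRNP proteins, 5 of 11 tested fell and none rose, with a median log2 exonic change of -0.14. Snrpa (the A protein of the U1 snRNP, which binds a stem-loop of U1 snRNA; chr7:27187005-27196271) had 106, 105, 118 and 105 exonic CPM in dTAG-13 libraries, against 121, 126, 129 and 124 CPM in DMSO libraries. Every dTAG-13 library was below every DMSO library, although dTAG-13 replicate 3 came close. Its log2 change was -0.20 ± 0.04 (SE, adjusted p = 0.00037, edgeR).

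Snrpa1 (the A-type protein of the U2 snRNP; chr7:66059003-66074587) had 38.9, 33.6, 35.2 and 40.8 CPM with dTAG-13, against 42.7, 39.3, 45.3 and 42.3 CPM with DMSO. The groups overlapped, since dTAG-13 replicate 4 lay above DMSO replicate 2. The log2 change was -0.19 ± 0.06 (SE, adjusted p = 0.012, edgeR), and the adjusted p was 0.071 without dTAG-13 replicate 2 and 0.058 without DMSO replicate 3. Snrpd1, one of the Sm proteins that form a ring on the snRNA (chr18:10617775-10642079), had 39.6, 37.9, 41.7 and 36.0 CPM with dTAG-13, against 43.0, 46.2, 44.5 and 40.5 CPM with DMSO. Its groups overlapped through dTAG-13 replicate 3, and the log2 change was -0.17 ± 0.05 (SE, adjusted p = 0.019, edgeR). This call was lost without dTAG-13 replicate 2 (0.059), dTAG-13 replicate 4 (0.078) or DMSO replicate 2 (0.074).

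The U1 protein Snrpc fell by 0.13 and the Sm protein Snrpf by 0.16 on the log2 scale. Snrpc lost its call without dTAG-13 replicate 2 (0.091) or 4 (0.097) or DMSO replicate 2 (0.118) or 4 (0.084). Snrpf lost it without dTAG-13 replicate 2 (0.161), 3 (0.074) or 4 (0.077) or DMSO replicate 1 (0.093), 3 (0.075) or 4 (0.091). The other snRNP proteins tested, Snrpb, Snrpb2, Snrpd2, Snrpd3, Snrpe and Snrpg, did not pass the test, with log2 changes from -0.14 to -0.07. Snrpn, known as the Sm protein of neurons, had 0 exonic reads in every library. Snurf and Gm38393 overlap Snrpn on the same strand, so its read count may be uncertain. Summed over the 12 genes, exonic reads were 694 ± 27.8 CPM with dTAG-13 and 759 ± 15.2 CPM with DMSO (SD, n = 4 each). The sum was 8.60% lower after dTAG-13 and the groups did not overlap.

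Among SF3 genes, 3 of 9 fell and none rose, with a median log2 change of -0.05. Sf3a2, a subunit of SF3A in the U2 snRNP (chr10:80798198-80804924), had 94.97, 96.2, 93.4 and 80.4 CPM with dTAG-13, against 101, 114, 101 and 108 CPM with DMSO. The groups did not overlap, and the log2 change was -0.21 ± 0.05 (SE, adjusted p = 0.0019, edgeR). Its partner Sf3a3 (chr4:124714776-124732460) had 57.0, 52.3, 54.2 and 53.3 CPM with dTAG-13, against 62.1, 62.4, 57.0 and 62.5 CPM with DMSO. The highest dTAG-13 library and the lowest DMSO library nearly touched, and the log2 change was -0.17 ± 0.04 (SE, adjusted p = 0.0044, edgeR).

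Sf3b3, a scaffold subunit of SF3B (chr8:110810239-110846787), had 435, 398, 412 and 413 CPM with dTAG-13, against 457, 434, 439.6 and 447 CPM with DMSO. The groups overlapped through dTAG-13 replicate 1, the log2 change was -0.10 ± 0.04 (SE, adjusted p = 0.033, edgeR), and the call was lost without dTAG-13 replicate 2 (0.139) or 3 (0.060) or DMSO replicate 1 (0.111) or 4 (0.082). The third SF3A subunit, Sf3a1, had a log2 change of -0.05 and did not pass the test. Nor did Sf3b1, which clamps the branch point, at -0.05, or Sf3b2, Sf3b4, Sf3b5 and Sf3b6, at -0.05 to 0.02. The sum over SF3 genes was 1620 ± 58.7 CPM with dTAG-13 and 1704 ± 25.2 CPM with DMSO (SD, n = 4 each), and the groups overlapped.

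Of the U2AF pair, the small subunit U2af1, which reads the AG at the 3′ splice site (chr17:31647081-31658892), had 71.3, 67.8, 70.6 and 67.7 CPM with dTAG-13, against 77.4, 75.8, 78.2 and 76.9 CPM with DMSO. The groups stood clearly apart, and the log2 change was -0.15 ± 0.04 (SE, adjusted p = 0.0035, edgeR). The large subunit U2af2, which binds the polypyrimidine tract, had 294, 294, 291 and 273 CPM with dTAG-13, against 281, 294, 282 and 295 CPM with DMSO. These groups overlapped fully, and the log2 change of -0.00 had a 95% interval of -0.08 to 0.07. U2af1l4, a relative of U2af1, had 0.264 exonic CPM with dTAG-13 and 0.207 CPM with DMSO and was not tested.

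PRPF genes mostly did not pass: 1 of 13 fell, none rose, and the median log2 change was -0.08. The one that fell was Prpf4, a U4/U6 snRNP protein (chr4:62408797-62426990), with 53.8, 52.9, 55.1 and 55.7 CPM with dTAG-13, against 61.2, 61.2, 58.7 and 55.6 CPM with DMSO. Its groups overlapped only through DMSO replicate 4. The log2 change was -0.12 ± 0.04 (SE, adjusted p = 0.038, edgeR). The call was lost without dTAG-13 replicate 1 (0.060), 2 (0.101) or 3 (0.051) or DMSO replicate 1 (0.117), 2 (0.109) or 3 (0.056).

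Prpf8, the core protein of the U5 snRNP that cradles the catalytic site, had the highest exonic CPM of the set. It had 730.3, 671, 674 and 673 CPM with dTAG-13, against 724, 672, 689 and 711 CPM with DMSO. The groups overlapped, and the log2 change of -0.02 had a 95% interval of -0.10 to 0.05. All 13 PRPF estimates were below 0, from -0.12 to -0.02; Prpf3 of the U4/U6 snRNP was at -0.11, the ubiquitin ligase Prpf19 at -0.07 and the tri-snRNP protein Prpf6 at -0.06. The PRPF sum was 1546 ± 31.2 CPM with dTAG-13 and 1606 ± 18.9 CPM with DMSO (SD, n = 4 each), with overlap.

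SR protein genes had the largest share of falls, 6 of 11 tested, with none higher and a median log2 change of -0.12. Whether this share differs from those of the other roles was not tested. Srsf4 (chr4:131873617-131901706) had 97.8, 91.4, 90.4 and 90.0 CPM with dTAG-13, against 104, 102, 104 and 108 CPM with DMSO. No library of one group reached into the other, and the log2 change was -0.18 ± 0.04 (SE, adjusted p = 0.0008, edgeR). Srsf11, an SR-related protein (chr3:158010473-158036639), had 141, 152, 138 and 157 CPM with dTAG-13, against 157, 174, 171 and 164 CPM with DMSO. Dividing the groups was a gap of less than 1 CPM between dTAG-13 replicate 4 and DMSO replicate 1, and the log2 change was -0.18 ± 0.04 (SE, adjusted p = 0.0022, edgeR).

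Srsf1, the founding SR protein, also known as SF2/ASF (chr11:88047373-88053755), had 581, 549, 566 and 551 CPM with dTAG-13, against 605, 617, 608 and 635 CPM with DMSO. The groups stood apart, and the log2 change was -0.13 ± 0.03 (SE, adjusted p = 0.0029, edgeR). Srsf7, Srsf2 and Srsf3 also fell, with log2 changes of -0.14, -0.12 and -0.12, and all 6 called SR genes kept the call whichever library was left out. Srsf10, Srsf6, Srsf5 and Srsf9 did not pass the test, at -0.09, -0.05, 0.04 and 0.04. Srsf3-ps, an intronless copy whose reads cannot be told apart from those of Srsf3 where the sequences are alike, was at -0.27 with a standard error of 0.42. The SR sum was 2331 ± 17.3 CPM with dTAG-13 and 2514 ± 11.6 CPM with DMSO (SD, n = 4 each), 7.28% lower and without overlap. Without the TMM factors the SR groups overlapped.

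Of the hnRNPs, 7 of 19 tested fell and none rose, with a median log2 change of -0.09. Hnrnph2, which binds G-rich RNA and lies on the X chromosome (chrX:134601179-134607060), had 53.1, 52.5, 49.7 and 51.1 CPM with dTAG-13, against 63.7, 66.0, 62.3 and 69.2 CPM with DMSO. The gap between the groups was wider than the range within either. Its log2 change of -0.34 ± 0.04 (SE, adjusted p = 6.8e-07, edgeR), or 1.27-fold lower, was the largest among the 23 that fell. Hnrnph1, its close relative (chr11:50376990-50386528), had 232, 262, 257 and 263 CPM with dTAG-13, against 268, 282, 299.7 and 285 CPM with DMSO, again without overlap. Its log2 change was -0.16 ± 0.04 (SE, adjusted p = 0.0046, edgeR). Hnrnph3, a further relative, had -0.09 and did not pass.

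Hnrnpul1, related to the nuclear scaffold protein Hnrnpu (chr7:25721165-25754757), had 496, 490.0, 481 and 468 CPM with dTAG-13, against 529, 559, 528 and 553 CPM with DMSO. The groups did not overlap, and the log2 change was -0.17 ± 0.03 (SE, adjusted p = 0.00046, edgeR). Hnrnpd (AUF1, which binds AU-rich elements of mRNAs) fell by 0.15 on the log2 scale, Hnrnpa0 by 0.12, Hnrnpr by 0.11 and Hnrnpdl by 0.10. Hnrnpd kept its call in every fit with 1 library left out. Hnrnpa0 lost it without dTAG-13 replicate 2 (0.108) or 4 (0.118) or DMSO replicate 1 (0.053) or 4 (0.132). Hnrnpr lost it without dTAG-13 replicate 3 (0.114) or DMSO replicate 1 (0.097) or 3 (0.062), and Hnrnpdl without dTAG-13 replicate 3 (0.106) or DMSO replicate 1 (0.054) or 2 (0.098).

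Hnrnpk, which binds C-rich RNA (chr13:58391142-58403343), had the second highest exonic CPM in the DMSO libraries after Prpf8 and was not called. It had 687, 636, 645 and 636 CPM with dTAG-13, against 630.1, 642, 615 and 628 CPM with DMSO. The groups overlapped, and the log2 change of 0.05 had a 95% interval of -0.02 to 0.12. The classical core hnRNPs were also not called, with Hnrnpa1 at -0.09, Hnrnpa2b1 at -0.04 and Hnrnpc at -0.04. Summed hnRNP reads were 5287 ± 106 CPM with dTAG-13 and 5578 ± 45.6 CPM with DMSO (SD, n = 4 each), 5.21% lower and without overlap. These hnRNP groups also overlapped slightly without the TMM factors. Hnrnpll, known from plasma cells and memory T cells, was near 0, with at most 0.171 CPM in any library.

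**Figure D2:**
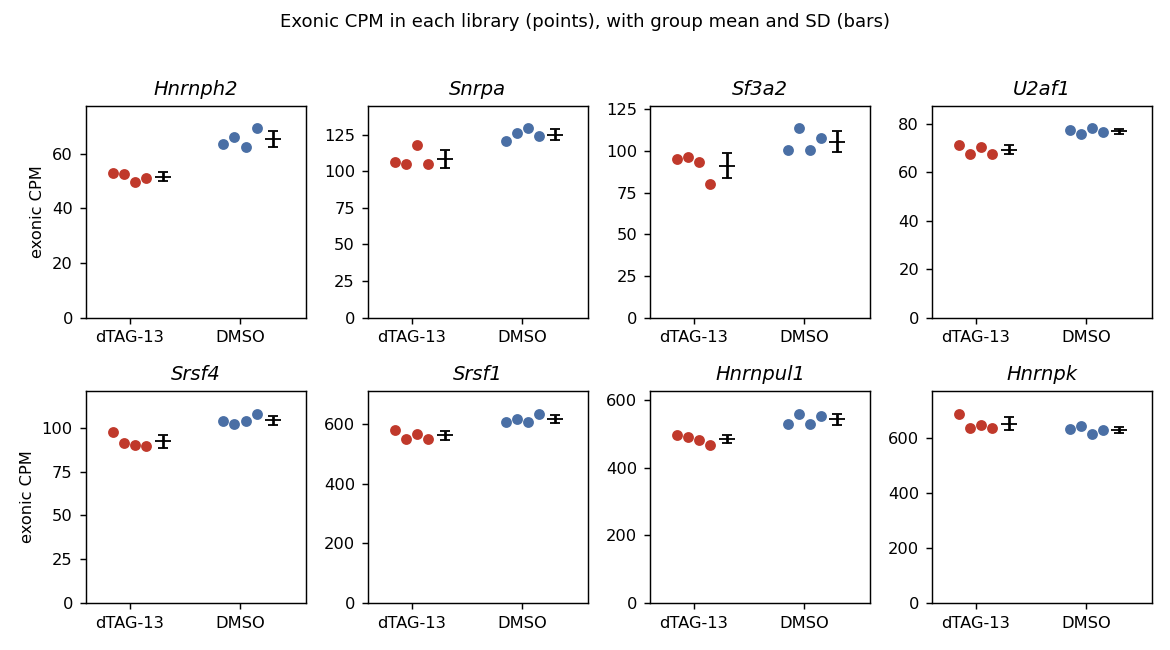
Exonic CPM (vertical axis, from 0) of 8 genes in each of the 4 dTAG-13 and 4 DMSO libraries, with group mean and SD beside the points. In 7 panels the dTAG-13 points lie below all DMSO points, and for Hnrnpk they overlap.

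Of 42 tested genes without a call, 38 had a 95% interval for the exonic change that lay within 1.2-fold in both directions. The exceptions were Snrpb2, Snrpd2, Prpf40b and Srsf3-ps. Of the 23 genes that fell, 16 also had an interval within 1.2-fold, so an interval within that limit does not show that a gene did not change.

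Per length of mRNA, the most abundant of the 69 was Srsf2, with 503 ± 19.4 TPM (transcript counts scaled by mRNA length and library total) with dTAG-13 and 524 ± 19.6 TPM with DMSO (SD, n = 4 each). Next in order of mean level came Hnrnpab, with 452 ± 14.2 TPM with dTAG-13 and 461 ± 10.3 TPM with DMSO, and Hnrnpa0, with 389 ± 11.2 TPM with dTAG-13 and 408 ± 18.5 TPM with DMSO. Hnrnpa1, Srsf1, Snrpb, Hnrnpf, Hnrnpk, Hnrnpl and Prpf8 followed, from 361 TPM for Hnrnpa1 to 306 TPM for Prpf8 with dTAG-13. From Srsf1 to Prpf8 the mean ± SD of neighbours in this order overlapped in both groups. TPM here carries no TMM factor, so its differences between groups can depart from those in CPM. Prpf8, for example, had 306 TPM with dTAG-13 and 298 TPM with DMSO, while Srsf2 was lower with dTAG-13 in both measures. At the other end of the tested genes stood Srsf3-ps, at 1.06 TPM with dTAG-13 and 1.21 TPM with DMSO, and Prpf40b, at 3.27 TPM with dTAG-13 and 3.35 TPM with DMSO.

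Intronic reads allowed a test of 63 genes, of which 2 fell after dTAG-13, Hnrnpul1 and Hnrnph2, and 0 rose (edgeR, adjusted p below 0.05). Among all 11229 genes tested, 8.5% fell and 8.26% rose. The median log2 intronic change was -0.04, with 43 of 63 estimates below 0 and a median standard error of 0.09. Over all 11229 genes the median was -0.0027, with 5683 estimates below 0. At an unadjusted p below 0.05 there were 9 lower (14.3%) and 2 higher (3.17%), against 14.5% of all genes lower and 13.3% higher, so the share lower was near that of all genes. DESeq2 called the same count, 2 lower and 0 higher. Groups did not overlap in 6 genes lower after dTAG-13 and in 1 higher, against 10% and 9.51% of all genes.

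Hnrnpul1 had 205, 218, 236 and 220.4 intronic CPM with dTAG-13, against 249.9, 253, 246 and 259.5 CPM with DMSO. The groups did not overlap, and the log2 intronic change was -0.20 ± 0.06 (SE, adjusted p = 0.025, edgeR). Leaving out dTAG-13 replicate 1 gave an adjusted p of 0.119, dTAG-13 replicate 2 0.066, DMSO replicate 1 0.071, DMSO replicate 3 0.057 and DMSO replicate 4 0.1197. Hnrnph2, with only 30 to 78 intronic reads per library, had 3.11, 4.20, 3.64 and 2.95 CPM with dTAG-13, against 3.86, 7.86, 5.90 and 6.79 CPM with DMSO.

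The Hnrnph2 groups overlapped through DMSO replicate 1, and the log2 intronic change was -0.81 ± 0.26 (SE, adjusted p = 0.034, edgeR). It lost the call without dTAG-13 replicate 1 (0.079), 3 (0.060) or 4 (0.089) and without DMSO replicate 2 (0.110), 3 (0.067) or 4 (0.108). With the scaling of the exonic reads applied to intronic reads, neither gene passed, at adjusted p = 0.446 for Hnrnpul1 and 0.055 for Hnrnph2.

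Other intronic values spread on both sides of 0. U2af2, which did not pass, had 148, 171, 152 and 151 intronic CPM with dTAG-13, against 139, 134, 146 and 135 CPM with DMSO. It was the 1 gene whose dTAG-13 libraries all lay above the DMSO libraries, with a log2 intronic change of 0.17 ± 0.06 (SE, adjusted p = 0.081, edgeR). Hnrnpk had 66.5, 59.9, 54.8 and 56.7 intronic CPM with dTAG-13, against 41.5, 49.6, 52.6 and 55.3 CPM with DMSO, and a log2 intronic change of 0.25 ± 0.09 (SE, adjusted p = 0.065, edgeR). Its groups overlapped slightly. U2af2 and Hnrnpk are named here after their values were seen. Without DMSO replicate 4 the adjusted p for Hnrnpk was 0.031, and without dTAG-13 replicate 1 U2af2 passed.

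For the genes with clear exonic falls, the intronic values were as follows. Snrpa had 21.2, 28.9, 29.2 and 27.7 intronic CPM with dTAG-13, against 30.4, 28.4, 26.3 and 24.1 CPM with DMSO. Sf3a2 had 23.7, 24.0, 26.5 and 23.6 CPM with dTAG-13, against 21.2, 26.9, 23.4 and 23.2 CPM with DMSO. In both genes the groups overlapped, and the log2 intronic changes were -0.02 ± 0.12 for Snrpa and 0.05 ± 0.11 for Sf3a2 (SE). U2af1 had more intronic CPM, with 212, 224, 223 and 207 with dTAG-13, against 231, 249, 219 and 217 with DMSO, also overlapping, at a log2 intronic change of -0.08 ± 0.06 (SE).

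Srsf4 had 262, 281, 268 and 259 intronic CPM with dTAG-13, against 282, 270.3, 285 and 291 CPM with DMSO, and Srsf11 had 101, 90.6, 102 and 89.7 CPM with dTAG-13, against 114, 112, 105 and 102 CPM with DMSO. The Srsf4 groups overlapped and the Srsf11 groups did not, at log2 intronic changes of -0.08 ± 0.06 and -0.17 ± 0.07 (SE). Srsf1, with 54 to 114 intronic reads per library, had -0.05 ± 0.22 (SE). Of the 61 genes without an intronic call, 29 had a 95% interval within 1.2-fold, so the intronic changes of the others were not bounded that closely at this depth.

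Whether the exonic and intronic changes of a gene differed was tested directly for the 62 genes with both. No gene passed in either direction (edgeR interaction of read class and treatment, adjusted p below 0.05), against 0.319% of 10026 genes in either direction, 0.16% with the exonic change below the intronic one and 0.16% above. At an unadjusted p below 0.05 the count was 7 of 62 (11.3%), against 7.77% of all genes, and DESeq2 called 0. Of these 7, the exonic change lay below the intronic one in 6 (9.68%), against 3.45% of all genes. It lay above in 1 (1.61%), against 4.32% of all genes. The median of exonic minus intronic change was -0.05, with 47 of 62 below 0 and a range from -0.56 in Srsf6 to 0.46 in Hnrnph2. Over all 10026 genes the median was 0.0036, with 4922 below 0. The size and sign of such differences depend on the scaling. With the exonic scaling factors applied to intronic reads, the medians were -0.011 for the 62 genes and 0.044 for all genes. Of the 62 genes, 20 (32.3%) were called in exonic reads and not in intronic reads, 2 (3.23%) in both and none in intronic reads alone. Over all 10026 genes with the 3 tests, 18.4% were called in exonic reads alone, 14.8% in both in the same direction and 2.7% in intronic reads alone. A difference between exonic and intronic change was not shown for any of the 20.

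The 7 genes at an unadjusted p below 0.05 for the difference were Sf3a2, U2af2, Srsf6, Hnrnph1, Hnrnph2, Hnrnpk and Hnrnpr. Sf3a2 had the exonic change 0.27 ± 0.09 (SE) below the intronic one on the log2 scale, with adjusted p = 0.420 in edgeR. For Hnrnph1 the difference was -0.20 ± 0.08 (SE, adjusted p = 0.452, edgeR). Hnrnph2 alone of the 7 had the exonic change above the intronic one, by 0.46 ± 0.19 (SE, adjusted p = 0.553, edgeR). In Hnrnpul1, the other gene that fell in both read classes, exonic minus intronic change was 0.03 ± 0.07 (SE).

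Across the 62 genes, exonic and intronic log2 changes had a Pearson r of 0.60 and a Spearman rho of 0.45, and 45 shared a sign (72.6%). Over all 10026 genes r was 0.81 and rho 0.67, and 74.8% shared a sign. Without Hnrnph2, left out after its values were seen, r was 0.44 and rho 0.42. These are descriptions across genes measured in the same 8 libraries, not independent points. The exonic change had r = 0.26 with the log2 exonic level and r = -0.12 with the intronic share of a gene's reads.

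**Figure D3:**
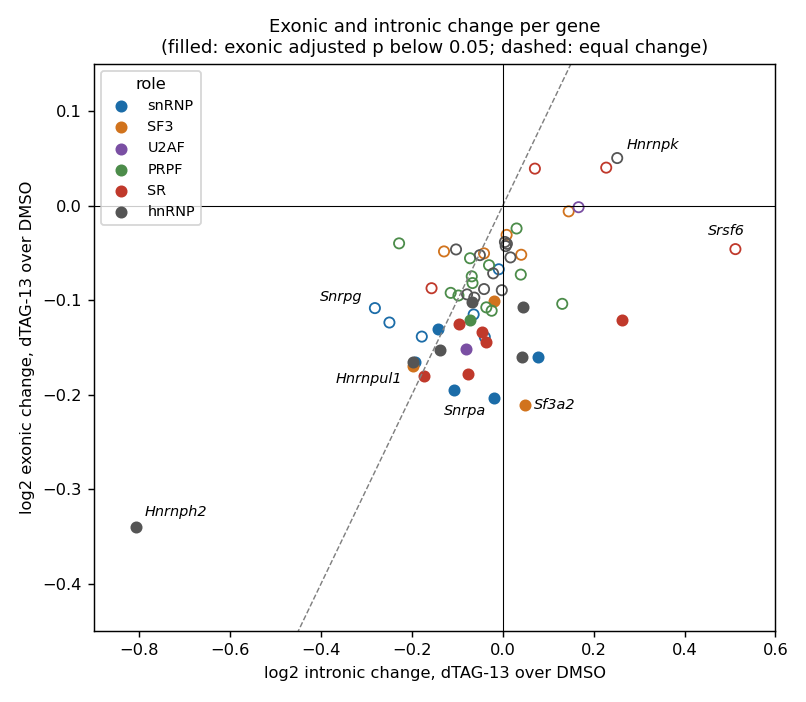
Log2 exonic change (vertical axis) against log2 intronic change (horizontal axis), dTAG-13 over DMSO, for 62 genes coloured by role, with filled points for an exonic adjusted p below 0.05 and a dashed line of equal change. The filled points lie between -0.34 and -0.10 on the exonic axis and from -0.81 to 0.26 on the intronic axis, and Hnrnph2 stands apart at the lower left.

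The share of a gene's reads that were intronic had a median of 13.1% with dTAG-13 and 13.04% with DMSO over the 63 genes with an intronic test. It was highest in U2af1l4, at 98.6% with dTAG-13 and 99.0% with DMSO, a gene that Gm49396 overlaps on the same strand and Psenen on the other. Hnrnpu followed, at 73.0% with dTAG-13 and 73.3% with DMSO, and it is overlapped by Cox20 on the other strand. Hnrnph3, Prpf39, Hnrnpm, U2af1 and Srsf4 were also above 40% in both groups, and Prpf40b was at 43.3% with dTAG-13 and 39.9% with DMSO; the limit was set after the values were seen. Hnrnpm is overlapped by March2 and Srsf4 by A930004J17Rik on the same strand.

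At the low end stood the SR genes Srsf2, at 0.0960% with dTAG-13 and 0.0759% with DMSO, and Srsf1, at 0.369% with dTAG-13 and 0.357% with DMSO. Both have few intronic bases in the annotation. Hnrnpa0 and Sf3b5 have no intron there and gave no intronic value. Of the 69 genes, 13 are overlapped by another gene on the same strand and 28 by one on the opposite strand, and the reads of such genes may be uncertain, since the strand setting of the counting was not given in the sources used here. Snrpa has BC024978 on the opposite strand. Sf3a3, Sf3b3, Srsf11, Hnrnpk and Snrpa1 have small or predicted genes on the same strand.

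Summed by role, intronic reads were lower without overlap in SR genes, at 801 ± 35.0 CPM with dTAG-13 and 853 ± 15.2 CPM with DMSO, and in PRPF genes, at 759 ± 11.3 CPM with dTAG-13 and 789 ± 13.2 CPM with DMSO (SD, n = 4 each). Without the TMM factors the SR and PRPF groups overlapped. For intronic reads these factors ran from 1.000 to 1.027 in dTAG-13 libraries and from 0.963 to 1.014 in DMSO libraries. With the factors, the groups overlapped for snRNP, SF3, U2AF and hnRNP genes. Over all 69 genes the intronic sum was 6751 ± 301 CPM with dTAG-13 and 7005 ± 152 CPM with DMSO, with overlap. Hnrnpu, a nuclear scaffold protein, gave 1387 ± 263 CPM of it with dTAG-13 and 1448 ± 124 CPM with DMSO (SD, n = 4 each).

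**Figure D4:**
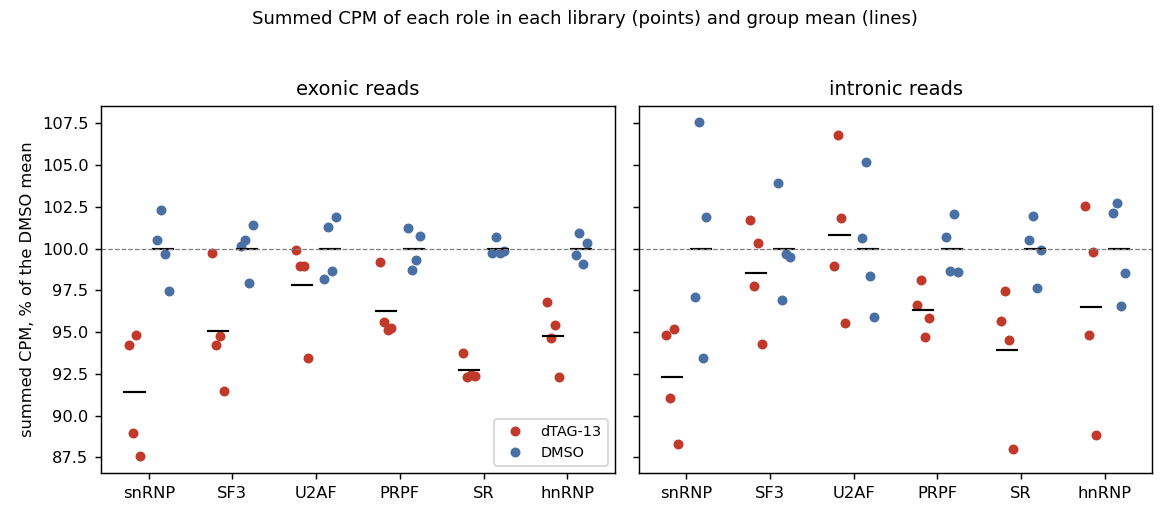
Summed exonic (left) and intronic (right) CPM of each role as a percentage of the DMSO mean, 1 point per library and lines for group means; the vertical axis does not start at 0. With the TMM factors, exonic sums of snRNP, SR and hnRNP genes separate the groups, with SR at 2331 CPM with dTAG-13 and 2514 CPM with DMSO.

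Genes of the spliceosome outside the name pattern were taken as a list of 125 from general knowledge, 123 of them tested in exonic reads. Of these 31 fell and 5 rose, against 14% and 14.3% of all genes, with a median log2 exonic change of -0.07. At a mean of at least 20 CPM, 30 of 112 fell (26.8%) and 5 rose (4.46%), against 21.4% and 19.3% of all genes at that level. Assembly factors of snRNPs had 8 lower and 1 higher of 16. Gemin5, which recognises snRNAs for the SMN complex, had 108 ± 2.52 CPM with dTAG-13 and 134 ± 2.50 CPM with DMSO (SD, n = 4 each), a log2 change of -0.30. Wdr77 had 38.0 ± 1.86 CPM with dTAG-13 and 47.4 ± 1.79 CPM with DMSO, a log2 change of -0.32, while Prmt5, the Sm protein methyltransferase that works with Wdr77, rose to 183 ± 2.77 CPM with dTAG-13, against 158 ± 1.52 CPM with DMSO.

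Further falls outside the name pattern included Tra2a, an SR-like splicing regulator, with 101 ± 7.58 CPM with dTAG-13 and 141 ± 4.39 CPM with DMSO (SD, n = 4 each), a log2 change of -0.49. Both SR protein kinases that passed the test did so in opposite directions, with Srpk1 at a log2 change of -0.19 and Srpk2 at 0.31. The other 3 genes that rose were the splicing regulators Celf2, Ptbp3 and Mbnl1, at 0.33, 0.25 and 0.21. These genes were named after their values were seen. None of the 120 listed genes tested for a difference between exonic and intronic change passed in edgeR, with 2 at an unadjusted p below 0.05 and 0 by DESeq2.

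The authors' deposited table gave 24 of the 69 genes as lower and 0 as higher in exonic reads at an adjusted p below 0.05, and 22 of these were also called here. In the authors' deposited table Srsf10 and Hnrnpa1 were called and Snrpf was not. The share called over all genes of that table was not taken, so its counts are set only beside the calls made here. For intronic reads the authors' deposited table called 2 lower, the same 2 genes as here.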

How the data were processed

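Raw counts of reads per gene, over exons and over whole genes, were deposited by the authors for 8 total RNA libraries. A stranded kit that depletes ribosomal RNA was used, per the labels' protocols. The genes Gm26917 and Gm42418, treated here as like ribosomal RNA, still took 25.7 to 29.3% of the exonic reads of a library. Their reads are part of the exonic totals given. Tools listed in the submitters' processing notes are Subread 2.0.0 with featureCounts, STAR 2.7.4a, DESeq2, deepTools 3.3.2 and SAMtools 1.10; builds listed are GRCm38.p4 and mm10. The annotation release and the strand setting are not given in the sources used here. The authors' deposited table of comparisons holds log2 fold changes, p-values and adjusted p-values and the mean normalized signal of each gene for exonic and intronic reads, per the file headers. Its names chose the genes, and its calls were counted beside those made here.

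Intronic counts were whole-gene minus exon counts, and 0 differences were negative. The test was the quasi-likelihood F test of edgeR 4.0.16, under R 4.3.3 (TMM factors, filterByExpr with minimum count 10 and minimum total 15, treatment as the only term). Benjamini-Hochberg adjustment ran over all genes tested, and calls were made below 0.05. Exonic and intronic changes were compared in 1 model over 16 columns with the library as a block. DESeq2 1.42.0 and other settings served as alternatives. Lengths and coordinates come from GENCODE vM21 of GRCm38, and 50 of 69 identifiers carried the same version there. TPM used the union of annotated exons. No protein sequences were used.

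The genes and lists were chosen with earlier results of these data known. Genes given with a value in every library were, per role, up to 3 with the smallest exonic p, up to 2 with the smallest intronic p and up to 2 with the smallest p of the difference, among those with an adjusted p below 0.05, and the 3 with the highest exonic CPM, 16 in all. Others are said to be named after their values were seen. Depth was 28982316 to 38999496 exonic reads per library, which gave a median standard error of 0.04 for exonic and 0.09 for intronic log2 changes of the set. Replicate libraries differed by more than sampling noise, with a chi-square per degree of freedom from 4.76 to 13.4 between pairs of one group.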

Additional observations from a re-analysis of the deposited data

Results flagged for a closer look

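In 64 groups of 4 libraries (16 genes, exonic and intronic CPM, dTAG-13 and DMSO), 5 had a library whose gap to the nearest other passed Dixon's limit for 4 values, which chance alone passes in about 1 of 20 groups. Snrpa had 117.9 exonic CPM in dTAG-13 replicate 3, against 105.2 to 106.0 CPM in the other dTAG-13 libraries. Sf3a2 had 26.5 intronic CPM in dTAG-13 replicate 3, against 23.6 to 24.0 CPM in the others. Sf3a3 had 57.0 exonic CPM in DMSO replicate 3, against 62.1 to 62.5 CPM in the other DMSO libraries. Prpf8 had 730.3 exonic CPM and Hnrnpk 686.9 exonic CPM in dTAG-13 replicate 1, against 670.8 to 674.1 CPM and 636.0 to 644.6 CPM in the other dTAG-13 libraries. The Snrpa, Sf3a2 and Sf3a3 libraries above did not decide an exonic call: the exonic falls of all 3 genes passed whichever library was left out.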

How the results depend on the processing

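The count of 23 genes lower in exonic reads was 20 to 26 with RLE factors, no filter on low counts, DESeq2, the replicate block or without Gm26917 and Gm42418, and 17 to 25 with 1 library left out. It was 11 of 66 with whole-gene counts, where 1631 of all 14347 genes were lower. With the test against 1.2-fold it was 0, where 486 of all 12889 genes were lower. No setting called a gene higher in exonic reads. The 2 genes lower in intronic reads became 0 with the exonic scaling factors and with the test against 1.2-fold, and 0 to 1 with 1 library left out. The 0 higher in intronic reads became 1 (Hnrnpk) with an intronic mean of at least 50 reads, and 0 to 1 with 1 library left out. No setting run called a difference between exonic and intronic change. Of the other spliceosome genes, 31 lower became 17 with whole-gene counts and 1 with the test against 1.2-fold (22 to 36 with 1 library left out), and 5 higher became 0 with the test against 1.2-fold (5 to 6 with 1 library left out). The cause of these shifts was not tested.

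The replicate block gave 26 genes lower in exonic reads and 2 in intronic reads. Same-numbered libraries deviated together with r of only 0.05, 0.00, -0.02 and 0.02, so no strong shared effect of the numbers was seen. Weak correlations cannot exclude that the numbers denote pairs. Not every library correlated best with its own number.

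No exonic change of the 16 genes reversed. Estimates near 0 that reversed in sign, none of them called, were as follows. With the exonic scaling factors the intronic change of Prpf8 was -0.0043 and the difference for Srsf11 was 0.032. With 1 library left out, intronic changes spanned -0.064 to 0.084 for Snrpa, -0.046 to 0.016 for Sf3b3, -0.21 to 0.087 for Srsf1, -0.0081 to 0.085 for Hnrnph1 and -0.030 to 0.14 for Prpf8, and differences spanned -0.069 to 0.092 for Snrpd1, -0.048 to 0.12 for Sf3a3, -0.093 to 0.022 for Prpf4, -0.077 to 0.040 for Srsf11, -0.22 to 0.11 for Srsf1, -0.017 to 0.057 for Hnrnpul1 and -0.17 to 0.015 for Prpf8. The cause of these reversals was not tested. Small changes below about the standard errors given are not resolved, and CPM values do not show total RNA per cell.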
